A study of Mus musculus with 24 samples.

Results

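DNA replication genes were followed in splenic CD4+ T cells through the first day after T cell receptor stimulation. The set holds 50 genes, fixed by name as components of the replication machinery and the E2F factors that act on them, out of 54446 gene identifiers in the count table. Each of the 50 symbols matched 1 identifier, and all 50 were among the 15325 genes that passed the filter on low counts. By role they are 6 MCM2-7 helicase genes, 6 origin recognition and licensing genes, 9 helicase activation genes, 6 clamp and clamp loader genes, 3 genes of single-stranded DNA binding, 8 polymerase and primase genes, 2 genes each of Okazaki fragment processing, chromatin assembly and fork protection, 5 E2F genes, and Mcm8.

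The cells came from the spleens of 6 mice of C57BL6 background. The labels give the genotype WT (wild type) to mice 1, 3 and 4 of one set and AIM2-/- (written Aim2-/- here) to mice 1, 2 and 4 of the other. Aim2 encodes a cytosolic sensor of double-stranded DNA, and its deletion was not limited to T cells. Every mouse gave an unstimulated control library (0 h) and libraries from cells cultured for 3, 6 and 24 h on anti-CD3 with anti-CD28, the stand-ins for antigen and costimulation, so that 8 groups of 3 libraries resulted. The paper states that its animals were matched for sex and age, and the age itself was not given in the sources used here. Values of a group are listed below in the order of WT mice 1, 3 and 4 or Aim2-/- mice 1, 2 and 4.

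Resting T cells are out of the cell cycle, and antigen receptor signals drive them through G1 into S phase. In G1 the origin recognition complex, Cdc6 and Cdt1 load the MCM2-7 helicase onto origins, a step called licensing, which geminin (Gmnn) blocks by binding Cdt1. At the start of S phase the kinase of Cdc7 and Dbf4, with Mcm10 and Ticrr, activates the helicase by adding Cdc45 and the GINS complex, and the polymerases, the clamp PCNA and its loader RFC then copy the strands. Many of these genes are known targets of E2F factors, which the retinoblastoma protein family restrains in resting cells.

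To show the DNA that E2F factors could read in these genes, promoter windows from RefSeq (GRCm38.p6, 250 bases before to 50 after a gene's start) were searched for the E2F letters TTTCCCGC, TTTCGCGC, TTTGCCGC and TTTGGCGC on both strands, which can overlap each other. Of the 50 genes, 42 had a window in the table. The letters stood in a window of 18 of these 42 genes (42.9%), against 704 of 27025 genes in the whole table (2.6%). A match is a description of the letters and not evidence of binding. Among the MCM2-7 genes Mcm3, Mcm5, Mcm6 and Mcm7 carried them and Mcm2 did not. The sites below are shown because they stand in genes whose rise is described further on. Each is read on the strand of its gene, with the E2F letters in capitals and neighbouring bases in lower case.

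Mcm3, site at chr1:20820286-20820293, minus strand: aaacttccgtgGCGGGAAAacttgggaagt
Mcm5, site at chr8:75109356-75109363, plus strand: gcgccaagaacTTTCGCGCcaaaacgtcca
Mcm6, site at chr1:128359808-128359815, minus strand: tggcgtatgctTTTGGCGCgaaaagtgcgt
Mcm7, site at chr5:138171860-138171867, minus strand: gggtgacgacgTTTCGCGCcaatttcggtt
Orc1, site at chr4:108579427-108579434, plus strand: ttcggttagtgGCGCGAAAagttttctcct

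The sites of Mcm5 and Mcm6 each overlapped a second match read on the other strand, and Mcm3, Mcm6 and Mcm7 each held another match elsewhere in the window. The longer windows below belong to the genes with a promoter entry that rose most and least between 0 and 24 h in WT cells. They hold only the bases before the start that lie outside annotated exons of any gene, and E2F letters are again in capitals. Mcm10, Cdc6 and Orc1 rose most, and Rpa1, Dbf4 and Cdt1 rose least or not at all.

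Mcm10, chr2:5012792-5013041, minus strand: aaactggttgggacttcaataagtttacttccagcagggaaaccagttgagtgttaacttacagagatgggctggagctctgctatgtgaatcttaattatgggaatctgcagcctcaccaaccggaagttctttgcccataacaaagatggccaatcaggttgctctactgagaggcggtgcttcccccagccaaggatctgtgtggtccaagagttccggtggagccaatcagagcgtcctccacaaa
Cdc6, chr11:98907982-98908150, plus strand: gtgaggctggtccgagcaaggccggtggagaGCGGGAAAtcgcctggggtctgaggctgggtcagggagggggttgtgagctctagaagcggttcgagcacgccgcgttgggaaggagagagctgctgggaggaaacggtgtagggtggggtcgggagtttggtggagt
Orc1, chr4:108579337-108579422, plus strand: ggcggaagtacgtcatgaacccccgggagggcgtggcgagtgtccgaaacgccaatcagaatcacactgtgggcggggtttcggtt
Rpa1, chr11:75348384-75348432, minus strand: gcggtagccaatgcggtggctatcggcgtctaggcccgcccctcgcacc
Dbf4, chr5:8422717-8422849, minus strand: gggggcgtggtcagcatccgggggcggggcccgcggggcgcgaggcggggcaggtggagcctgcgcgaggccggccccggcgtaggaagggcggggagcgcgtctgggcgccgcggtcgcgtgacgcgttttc
Cdt1, chr8:122567765-122568014, plus strand: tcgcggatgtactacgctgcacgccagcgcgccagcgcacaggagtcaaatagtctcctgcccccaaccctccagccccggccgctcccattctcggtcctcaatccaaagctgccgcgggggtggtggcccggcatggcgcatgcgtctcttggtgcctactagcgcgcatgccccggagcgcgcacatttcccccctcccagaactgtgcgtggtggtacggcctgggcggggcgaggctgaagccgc

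Cdc6 held the letters before its start, Orc1 held them in the site shown above, and Cdt1 held them after its start, while the windows of Mcm10, Rpa1 and Dbf4 had none of these letters. The 18 genes with the letters had a median log2 fold change of 3.06 at 24 h in WT cells, with a range from 0.84 to 5.22. The 24 genes without them had a median of 2.89 and a range from -0.10 to 5.39. The letters were thus present among both strong and weak responders, and the ranges of genes with and without them overlapped over almost their whole length.

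The libraries held 19715161 to 21627018 counts, and levels are given as CPM, counts per 1e6 counts. The lowest value of any of the 50 genes in any library was 1.16 CPM, for E2f7, above the floor of 3 counts, which corresponds to 0.129 to 0.155 CPM. Markers of CD4 T cells summed to between 2759 and 4259 CPM in all 24 libraries. The mouse labelled WT 1 went against its label in Aim2, which read 21.5, 17.0, 11.5 and 5.57 CPM at 0, 3, 6 and 24 h there, near the Aim2-/- mice (5.28 to 20.1 CPM over all their libraries) and below the other WT mice (32.5 to 75.0 CPM). Results are therefore also given without this mouse. Whether fewer cells of a type or less RNA per cell lies behind a value cannot be told apart in bulk libraries, and p-values measure the spread between these mice only.

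**Figure D1:**
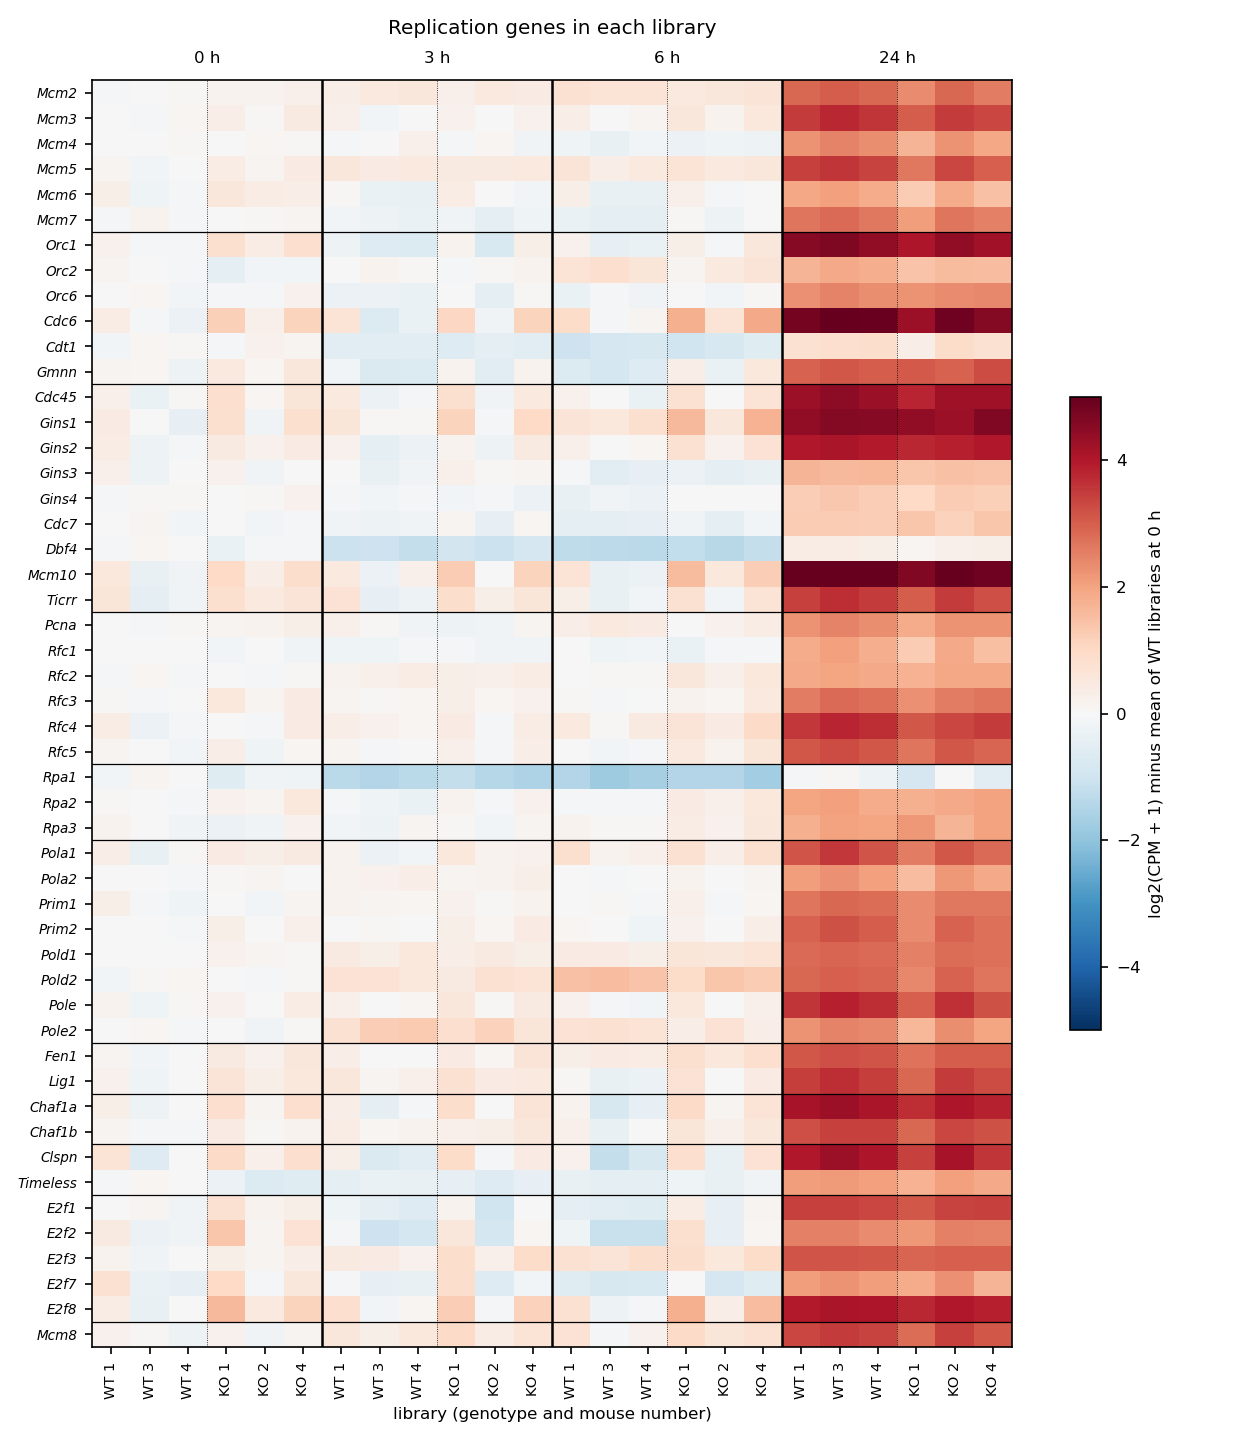
Each row is 1 of the 50 replication genes, ordered by role with lines between roles, and each column is 1 library; the colour gives log2(CPM + 1) minus the mean of the 3 WT libraries at 0 h. The 24 h columns are red in nearly every row, Rpa1 being the exception, while columns of 3 and 6 h hold both blue and red cells.

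By 24 h the replication genes had risen almost as a block. In WT cells 49 of 50 genes were called higher than at 0 h and 0 lower (edgeR quasi-likelihood test, adjusted p under 0.05), where 36.6% of all tested genes were called higher and 34.8% lower. Their median log2 fold change was 2.96, beside -0.013 over all tested genes. In Aim2-/- cells 49 genes were higher and 0 lower (background 36.8% and 33.5%), with a median of 2.57 beside 0.030. The gene not called at 24 h was Rpa1 in both genotypes. The count in WT cells was also 49 with the mouse labelled WT 1 left out. Without the 24 h library of Aim2-/- mouse 2, Rpa1 was called lower in Aim2-/- cells, at -0.36.

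The rise took place between 6 and 24 h. From 6 to 24 h all 50 genes were called higher in WT cells (background 29.6%) with a median log2 fold change of 2.89, and all 50 in Aim2-/- cells (background 27.4%) with a median of 2.35. The summed level of the 50 genes showed the same timing. It was 2300.5, 2240.5 and 2219 CPM at 0 h, 2124, 1878 and 1911 CPM at 6 h and 11404, 12862 and 11509.6 CPM at 24 h in the WT mice, and the 24 h values were 4.96, 5.74 and 5.19 times those of the same mice at 0 h. In the Aim2-/- mice it was 2402, 2333 and 2514 CPM at 0 h, 2298, 2043 and 2313 CPM at 6 h and 8287, 11329.6 and 9982 CPM at 24 h, and the ratios were 3.45, 4.86 and 3.97. The 3 ratios of the WT mice lay above all 3 of the Aim2-/- mice, though the nearest were 4.96 and 4.86. The 4.96 belongs to the WT mouse whose Aim2 level went against its label. The ratios also carry the 0 h sums, which were higher in every Aim2-/- mouse than in any WT mouse. The 24 h sums were lower in every Aim2-/- mouse, the nearest being 11329.6 against 11404 CPM. The separation of these ratios was not tested.

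The 6 MCM2-7 genes, whose products form the ring-shaped helicase, all rose at 24 h. Mcm3 rose most, from 84.3, 80.4 and 91.1 CPM at 0 h to 969, 1166 and 1026 CPM in WT cells and from 107, 89.6 and 116 to 709.6, 981 and 861 CPM in Aim2-/- cells, log2 fold changes of 3.63 ± 0.15 and 3.03 ± 0.14 (± SE, adjusted p 3.09e-14 and 3.18e-13). Mcm6 rose least, from 262, 183 and 205 to 820.1, 896 and 779 CPM in WT and from 316, 281 and 270.1 to 519.7, 783 and 600.4 CPM in Aim2-/- cells (1.94 ± 0.19 and 1.14 ± 0.19). Every library of 24 h lay above every library of 0 h for both genes.

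Mcm6 had begun highest of the 6. Per kilobase of exon its level at 0 h in WT cells was 46.4 ± 8.83 CPM (mean ± SD, n = 3), above Mcm4 at 36.9 ± 1.04, Mcm3 at 22.7 ± 1.44, Mcm7 at 19.3 ± 2.14, Mcm5 at 17.6 ± 1.59 and Mcm2 at 11.8 ± 0.553. At 24 h the order on this per-kilobase scale was Mcm3 (281 ± 26.9), Mcm5 (196 ± 16.02), Mcm4 (189 ± 14.4), Mcm6 (178 ± 12.7), Mcm7 (128 ± 9.72) and Mcm2 (90.9 ± 6.28). Mcm7 and Mcm5 at 0 h, and Mcm5, Mcm4 and Mcm6 at 24 h, lay within 1 SD of their neighbours.

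Among the other MCM genes, Mcm2 and Mcm5 had moved before 24 h. Mcm2 read 77.8, 83.8 and 84.99 CPM at 0 h, 102, 116 and 122 at 3 h, 139.8, 131 and 133 at 6 h, and 603, 683 and 612 at 24 h in WT cells. The Aim2-/- mice gave 93.2, 93.1 and 97.6 CPM at 0 h, 99.5, 115 and 108 at 3 h, 116, 122 and 128 at 6 h, and 422, 606 and 484 at 24 h. Its values rose at each step without overlap in both genotypes, with log2 fold changes against 0 h of 0.46 ± 0.10, 0.71 ± 0.10 and 2.94 ± 0.11 in WT cells. Mcm5 read 76.6, 63.9 and 70.5 CPM at 0 h, 109, 88.8 and 99.6 at 6 h, and 761, 857 and 736 at 24 h in WT cells. Its Aim2-/- values were 90.5, 77.8 and 94.7 CPM at 0 h, 112, 99.5 and 104 at 6 h, and 445, 728 and 558 at 24 h. The 6 h values of Mcm5 lay above those of 0 h in both genotypes, and the change was called in WT cells (0.49 ± 0.13, against 0.26 ± 0.13 in Aim2-/- cells).

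Mcm7 was instead called lower at 6 h in WT cells (-0.42 ± 0.12) before it rose. It read 79.9, 96.5 and 80.3 CPM at 0 h, 68.3, 60.9 and 61.9 at 6 h, and 548, 618 and 539 at 24 h in WT cells. Values in Aim2-/- cells were 83.5, 88.1 and 92.8 CPM at 0 h, 88.97, 72.2 and 84.2 at 6 h, and 362, 548 and 487 at 24 h. Mcm4 held 131, 129 and 137 CPM at 0 h, 114, 102 and 119 at 6 h, and 635, 735 and 662 at 24 h in WT cells and 129.7, 139.9 and 139.8 CPM at 0 h, 109, 113 and 111 at 6 h, and 428, 630.1 and 502 at 24 h in Aim2-/- cells, and its 6 h change was called lower in Aim2-/- cells (-0.30 ± 0.12, against -0.25 ± 0.12 in WT). Mcm8, a related helicase with a part in repair, rose from 3.25, 2.79 and 2.03 to 35.8, 39.8 and 36.9 CPM in WT cells between 0 and 24 h and from 3.29, 2.27 and 3.003 to 24.5, 37.6 and 30.4 CPM in Aim2-/- cells.

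Licensing genes spanned almost the whole range of responses. Cdc6, which helps load the helicase, rose from 5.30, 3.57 and 2.89 CPM at 0 h to 131, 161 and 148 CPM at 24 h in WT cells, a log2 fold change of 5.22 ± 0.48 or 37.3-fold, and from 10.1, 4.73 and 9.55 to 93.5, 141 and 115 CPM in Aim2-/- cells (3.84 ± 0.44). Orc1, the origin recognition subunit that varies most over the cell cycle, rose nearly as much, from 3.35, 2.53 and 2.48 to 86.3, 95.5 and 80.8 CPM in WT (4.97 ± 0.31) and from 5.52, 3.94 and 5.66 to 61.7, 81.4 and 68.7 CPM in Aim2-/- cells (3.81 ± 0.29). The other origin recognition subunits started higher and rose less, with 1.82 ± 0.12 for Orc2 and 2.40 ± 0.13 for Orc6 in WT cells. All 3 subunits had 24 h libraries that lay above every 0 h library.

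Cdt1, the licensing factor that geminin inhibits, fell first. In WT cells it read 117, 137 and 133 CPM at 0 h, 89.2, 86.04 and 87.6 at 3 h, 62.6, 72.05 and 74.3 at 6 h, and 221, 233 and 235 at 24 h. Aim2-/- cells read 124, 148 and 143 CPM at 0 h, 81.98, 93.4 and 89.8 at 3 h, 63.7, 72.6 and 84.7 at 6 h, and 162, 242 and 221 at 24 h. Each genotype was lower without overlap at 3 and 6 h, by log2 fold changes of -0.89 ± 0.12 in WT and -0.91 ± 0.12 in Aim2-/- cells at 6 h, and higher at 24 h (0.84 ± 0.12 and 0.59 ± 0.12). Gmnn, which encodes geminin, fell in WT cells at 6 h, from 18.6, 17.9 and 13.9 to 9.93, 8.67 and 10.3 CPM (-0.80 ± 0.23), and then rose to 136, 150.01 and 142 CPM at 24 h. The Aim2-/- mice held 23.6, 17.9 and 25.01 CPM of Gmnn at 0 h, 21.0002, 12.99 and 24.4 at 6 h and 148, 135 and 168 at 24 h.

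The helicase activation genes held both the largest rise and the smallest called rise. Mcm10, which acts as the helicase is switched on, rose from 6.85, 3.26 and 3.85 CPM at 0 h to 193, 209.8 and 184 CPM at 24 h in WT cells, 41.9-fold (5.39 ± 0.41), and from 9.73, 5.81 and 8.91 to 135, 184 and 159.8 CPM in Aim2-/- cells (4.29 ± 0.38). The helicase partners Cdc45 (4.51 ± 0.29), Gins1 (5.03 ± 0.43) and Gins2 (4.25 ± 0.23) and the activator Ticrr (3.68 ± 0.34) rose by more than the median of the set in WT cells. Gins3 (1.73 ± 0.15) and Gins4 (1.30 ± 0.086), subunits of the same 4-part GINS complex, rose by less. Gins2 shares 67.3% of its exon bases with the antisense gene Gse1 (mean 122 CPM), and whether strand was used in counting is not stated, so reads of such pairs may not be told apart. Smaller antisense overlaps concern Orc2 (29.8% with Nif3l1), Rfc2 (15.1% with Lat2), Rfc4 (12.7% with Eif4a2), E2f8 (11.2% with Gm2788), Orc1 (10.8% with Gm12743) and Rfc5 (10.7% with Wsb2), and those of Chaf1a and Fen1 are given with their values.

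Dbf4, the activating subunit of Cdc7, fell at once and came back only slightly above its resting level. Its WT values were 84.9, 98.8 and 92.7 CPM at 0 h, 43.1, 44.8 and 40.2 at 3 h, 37.2, 36.1 and 35.1 at 6 h, and 119, 119 and 112 at 24 h. Its Aim2-/- values were 72.2, 84.99 and 88.5 CPM at 0 h, 47.9, 43.7 and 51.2 at 3 h, 38.1, 34.99 and 39.2 at 6 h, and 99.6, 109.9 and 114 at 24 h. The 6 h libraries lay below every 0 h library, with log2 fold changes of -1.35 ± 0.086 in WT and -1.13 ± 0.086 in Aim2-/- cells, and the 24 h libraries lay above them, with 0.34 ± 0.084 and 0.40 ± 0.084. Cdc7 was called lower at 6 h in WT cells (-0.48 ± 0.12) and higher at 24 h in both genotypes (1.28 ± 0.12 and 1.43 ± 0.12).

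**Figure D2:**
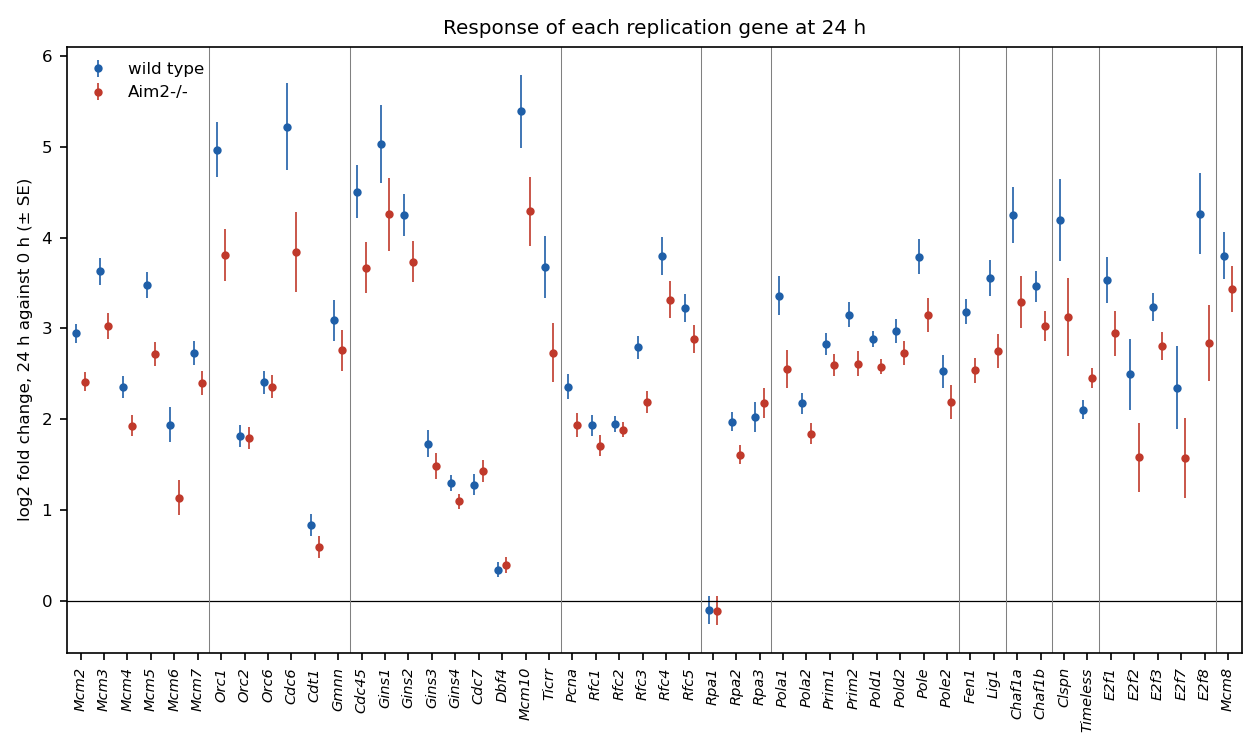
Each point is the log2 fold change of 1 gene at 24 h against 0 h with its standard error, for WT (blue) and Aim2-/- (red) cells, with genes ordered by role and lines between roles. Mcm10 and Cdc6 stand highest at 5.39 and 5.22 in WT cells, Rpa1 lies at -0.10, and the red point is below the blue one for most genes.

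Clamp and clamp loader genes rose together. Pcna, which encodes the sliding clamp, read 104, 96.7 and 107 CPM at 0 h, 129, 143 and 135 at 6 h, and 487, 573 and 519.7 at 24 h in WT cells. The Aim2-/- mice gave 113, 115 and 125 CPM at 0 h, 101, 119.9 and 134 at 6 h, and 373, 490.1 and 494 at 24 h. It was called higher at 6 h in WT cells (0.40 ± 0.13) and at 24 h in both (2.36 ± 0.13 and 1.94 ± 0.13). A processed copy, Pcna-ps2, averaged 1.42 CPM over the libraries. Among the loader subunits Rfc4 rose most, from 10.7, 6.25 and 7.51 to 102, 123 and 115 CPM in WT (3.80 ± 0.21) and from 7.89, 7.68 and 10.9 to 75.5, 89.1 and 99.1 CPM in Aim2-/- cells (3.32 ± 0.20). The large subunit Rfc1 rose least, from 66.01, 63.7 and 63.6 to 236, 270.4 and 231 CPM and from 58.3, 62.9 and 56.9 to 155, 241 and 187 CPM. Rfc2, Rfc3 and Rfc5 lay between, at 1.95, 2.79 and 3.22 in WT cells.

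The 3 subunits of replication protein A, which coats single-stranded DNA, did not move together. By group means Rpa1, the large subunit, was the most abundant of the 50 transcripts at 0 h in CPM and lost over 1 log2 unit within 3 h in both genotypes. In Aim2-/- mouse 1, however, Mcm6 stood higher at 0 h, at 316 against 276 CPM. WT cells held 387, 461 and 417 CPM of Rpa1 at 0 h, 164, 152 and 162 at 3 h, 150.05, 123 and 132 at 6 h, and 397, 434 and 349 at 24 h. Aim2-/- cells held 276, 368 and 358 CPM at 0 h, 184, 157 and 145 at 3 h, 153, 149.8 and 124 at 6 h, and 234, 409.9 and 285 at 24 h. No library of 3 or 6 h reached the lowest of 0 h in either genotype, and the log2 fold changes were -1.40 ± 0.16 and -1.64 ± 0.16 in WT and -1.04 ± 0.16 and -1.23 ± 0.16 in Aim2-/- cells. At 24 h its values overlapped those of 0 h in both genotypes, with -0.10 ± 0.16 (adjusted p 0.581) and -0.11 ± 0.16 (adjusted p 0.551).

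Rpa2 and Rpa3, the smaller subunits, rose instead. Rpa2 held 57.01, 54.5 and 52.3 CPM at 0 h, 50.4, 52.8 and 51.9 at 6 h, and 214, 226 and 203 at 24 h in WT cells. Values in Aim2-/- cells were 64.3, 59.9 and 79.3 CPM at 0 h, 71.96, 65.5 and 79.6 at 6 h, and 192, 205 and 223 at 24 h. Its log2 fold changes at 24 h were 1.97 ± 0.11 and 1.61 ± 0.11. Rpa3 went from 10.2, 8.74 and 7.81 to 32.8, 38.4 and 37.7 CPM in WT cells between 0 and 24 h (2.03 ± 0.16) and from 7.12, 7.68 and 10.4 to 43.7, 31.4 and 38.9 CPM in Aim2-/- cells (2.17 ± 0.17). On the per-kilobase scale Rpa1 at 0 h in WT cells stood at 75.6 ± 6.73 CPM against 18.2 ± 0.790 for Rpa2 and 7.85 ± 1.06 for Rpa3. At 24 h the 3 values were 70.5 ± 7.63, 71.6 ± 3.97 and 31.97 ± 2.67 CPM, and Rpa1 and Rpa2 then lay within 1 SD of each other.

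All 8 polymerase and primase genes rose at 24 h, by log2 fold changes of 2.17 to 3.79 in WT cells. Pole, the catalytic subunit of the leading-strand polymerase epsilon, went from 19.003, 14.3 and 17.5 to 213, 262 and 226 CPM in WT (3.79 ± 0.19) and from 19.7, 17.3 and 22.2 to 140.1, 224 and 161 CPM in Aim2-/- cells (3.15 ± 0.19). Pola2, the accessory subunit of polymerase alpha, went from 46.8, 47.04 and 43.6 to 198, 229.8 and 193 CPM and from 47.5, 50.3 and 45.7 to 134, 208 and 172 CPM (2.17 ± 0.11 and 1.84 ± 0.11). Pola1 (3.36), the primase subunits Prim1 (2.83) and Prim2 (3.15) and the polymerase delta subunits Pold1 (2.88) and Pold2 (2.97) lay between on the log2 scale in WT cells.

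This class also held the clearest early rises. Pold2, the accessory subunit of polymerase delta, read 25.6, 29.1 and 30.02 CPM at 0 h, 46.6, 47.1 and 40.9 at 3 h, 79.7, 84.1 and 76.4 at 6 h, and 211, 232 and 219 at 24 h in WT cells. Aim2-/- cells read 27.5, 27.1 and 29.8 CPM at 0 h, 38.4, 48.7 and 45.5 at 3 h, 54.8, 75.6 and 70.2 at 6 h, and 152, 222 and 186 at 24 h. It rose at each step with no overlap between successive times in either genotype. Pole2, the second subunit of polymerase epsilon, read 7.25, 8.06 and 6.85 CPM at 0 h, 13.4, 18.7 and 19.6 at 3 h, 12.6, 13.2 and 12.4 at 6 h, and 39.2, 45.8 and 42.7 at 24 h in WT cells. Its Aim2-/- values were 7.51, 6.40 and 7.73 CPM at 0 h, 13.9, 17.4 and 11.9 at 3 h, 9.53, 12.8 and 9.67 at 6 h, and 25.4, 41.1 and 32.2 at 24 h. Pole2 was thus higher at 3 h than at 6 h in every WT library and highest at 24 h. Its log2 fold changes at 3 h were 1.22 ± 0.18 and 1.00 ± 0.18.

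Genes that finish and protect the copied DNA rose as a group at 24 h. The ligase Lig1, which joins Okazaki fragments, rose from 53.2, 39.96 and 45.7 to 521, 604 and 511 CPM in WT (3.56 ± 0.20) and from 72.6, 56.04 and 67.3 to 344, 525 and 449.8 CPM in Aim2-/- cells (2.75 ± 0.19). The flap nuclease Fen1 rose from 43.2, 35.7 and 38.7 to 342, 377 and 351 CPM (3.18 ± 0.14) and from 53.5, 45.9 and 58.6 to 263, 326 and 329 CPM (2.54 ± 0.14). The chromatin assembly factor genes, which place histones on new DNA, rose by 4.25 ± 0.31 for Chaf1a (15.003, 10.03 and 12.1 to 228, 252 and 224 CPM) and 3.46 ± 0.17 for Chaf1b (14.1, 11.9 and 11.8 to 127, 145 and 143 CPM) in WT cells. No library of 0 h reached a library of 24 h for these 4 genes. Exons of Chaf1a overlap the antisense gene Ubxn6 over 52.5% of their bases, and those of Fen1 overlap the antisense gene Gm10143 over 78.8%, and the same limit holds for their values. The antisense genes averaged 85.2 CPM (Ubxn6) and 0.139 CPM (Gm10143).

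Clspn, the checkpoint adaptor claspin, and Timeless, a fork protection factor, differed in time. Clspn went from 10.7, 3.67 and 6.24 to 116, 141 and 121 CPM in WT (4.20 ± 0.45) and from 13.4, 7.78 and 12.01 to 78.2, 125 and 86.7 CPM in Aim2-/- cells (3.13 ± 0.43). Timeless read 40.2, 46.1 and 43.7 CPM at 0 h, 30.9, 34.3 and 32.9 at 3 h, 33.2, 30.7 and 30.5 at 6 h, and 186, 191 and 181 at 24 h in WT cells. The Aim2-/- mice gave 35.3, 26.7 and 27.9 CPM at 0 h, 32.2, 27.3 and 32.7 at 3 h, 37.3, 33.5 and 38.3 at 6 h, and 148, 183 and 162 at 24 h. By 6 h it was lower than at 0 h in all 3 WT mice and higher than at 0 h in all 3 Aim2-/- mice, both called, with log2 fold changes of -0.46 ± 0.10 and 0.28 ± 0.10.

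The E2F genes fell into early and late members. E2f3, an activator, read 12.1, 9.30 and 10.7 CPM at 0 h, 14.8, 14.3 and 12.5 at 3 h, 18.9, 17.3 and 20.6 at 6 h, and 101, 103 and 99.02 at 24 h in WT cells. Values in Aim2-/- cells were 13.3, 11.7 and 13.5 CPM at 0 h, 20.4, 12.9 and 20.7 at 3 h, 20.6, 15.6 and 20.7 at 6 h, and 85.9, 91.6 and 92.7 at 24 h. It was called higher at 6 h in both (0.83 ± 0.15 and 0.56 ± 0.15) and, in Aim2-/- cells, at 3 h. The activators E2f1 and E2f2 had lower values at 6 h than at 0 h in every mouse. E2f1 read 9.55, 10.4 and 8.06 CPM at 0 h, 6.61, 5.94 and 5.75 at 6 h, and 109.8, 110.1 and 104 at 24 h in WT and 16.6, 10.6 and 11.8 CPM at 0 h, 12.2, 6.66 and 10.3 at 6 h, and 87.7, 106 and 108 at 24 h in Aim2-/- cells. E2f2 read 23.2, 13.5 and 14.6 CPM at 0 h, 14.1, 7.16 and 7.11 at 6 h, and 101, 99.4 and 88.5 at 24 h in WT and 45.2, 18.4 and 28.5 CPM at 0 h, 30.1, 12.2 and 17.8 at 6 h, and 79.1, 100.4 and 95.99 at 24 h in Aim2-/- cells. These falls were called with mouse as a block, except that of E2f1 in Aim2-/- cells, and not without it, and both genes rose at 24 h (3.53 ± 0.26 and 2.49 ± 0.40 in WT cells).

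E2f7 and E2f8 encode the atypical E2F repressors. E2f8 rose most of the 5 E2F genes in WT cells, from 6.30, 3.26 and 4.56 to 87.1, 92.9 and 91.9 CPM (4.26 ± 0.45). In Aim2-/- cells it rose from 16.1, 6.84 and 11.1 to 75.6, 87.5 and 80.5 CPM (2.84 ± 0.41), and E2f1 had the larger estimate there (2.95 ± 0.25). E2f7 first fell and then rose. It read 5.55, 2.07 and 1.88 CPM at 0 h, 1.55, 1.22 and 1.27 at 6 h, and 15.4, 17.6 and 15.5 at 24 h in WT cells. Aim2-/- cells read 6.73, 2.76 and 4.73 CPM at 0 h, 2.81, 1.16 and 1.54 at 6 h, and 12.9, 17.7 and 11.7 at 24 h. Its fall at 6 h was called in both (-1.23 ± 0.48 and -1.36 ± 0.46), although the values of 0 and 6 h overlapped in Aim2-/- cells. Without the mouse labelled WT 1, whose 0 h value was the highest of the WT mice, the WT change was -0.66 with an edgeR adjusted p of 0.378, and the WT call held in 8 of 17 alternatives.

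Before 24 h the set as a whole did not stand out from the other genes. At 3 h 6 of 50 genes were called higher and 4 lower in WT cells (background 16.2% and 16.4%), and 6 higher and 6 lower in Aim2-/- cells (background 16.1% and 14.6%). At 6 h the counts were 9 higher and 10 lower in WT cells (background 26.4% and 24.8%), and 13 and 6 in Aim2-/- cells (background 28.5% and 22.7%). With mouse as a block the WT count at 3 h became 7 higher and 10 lower (background 21.2% and 21.5% in that fit), the added calls being E2f3 among those that rose and Orc1, Orc6, Gmnn, Rpa2, E2f1 and E2f2 among those that fell. In Aim2-/- cells the 3 h count of 12 (30.7% of all tested genes called) became 5 without mouse 4 (18%). The 6 h count of 19 (51.2%) became 12 without the 0 h library of mouse 2 (43.6%) and 11 without the 6 h library of mouse 4 (43.8%).

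Called higher in both genotypes were Rfc2, Pold1, Pold2 and Pole2 at 3 h, and Mcm2, Orc2, Pold1, Pold2, Pole2 and E2f3 at 6 h. Called lower in both were Cdt1, Dbf4 and Rpa1 at 3 h, joined at 6 h by Gins3 and E2f7. Left without a call in WT cells when the mouse labelled WT 1 was taken out were Rfc2 at 3 h (0.26 ± 0.081 with it and 0.28 without) and Gins3 (-0.39 ± 0.15 with it and -0.38 without) and E2f7 at 6 h. Orc2, an origin recognition subunit, read 49.5, 44.1 and 42.6 CPM at 0 h and 72.8, 80.9 and 69.7 at 6 h in WT cells, and 32.2, 41.3 and 41.3 CPM at 0 h and 49.996, 63.96 and 71.5 at 6 h in Aim2-/- cells. Orc1 fell at 3 h in Aim2-/- cells (-0.88 ± 0.29), from 5.52, 3.94 and 5.66 to 3.27, 1.24 and 3.67 CPM, and read 2.13, 1.42 and 1.36 CPM at 3 h in WT cells, below all 3 WT values of 0 h.

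**Figure D3:**
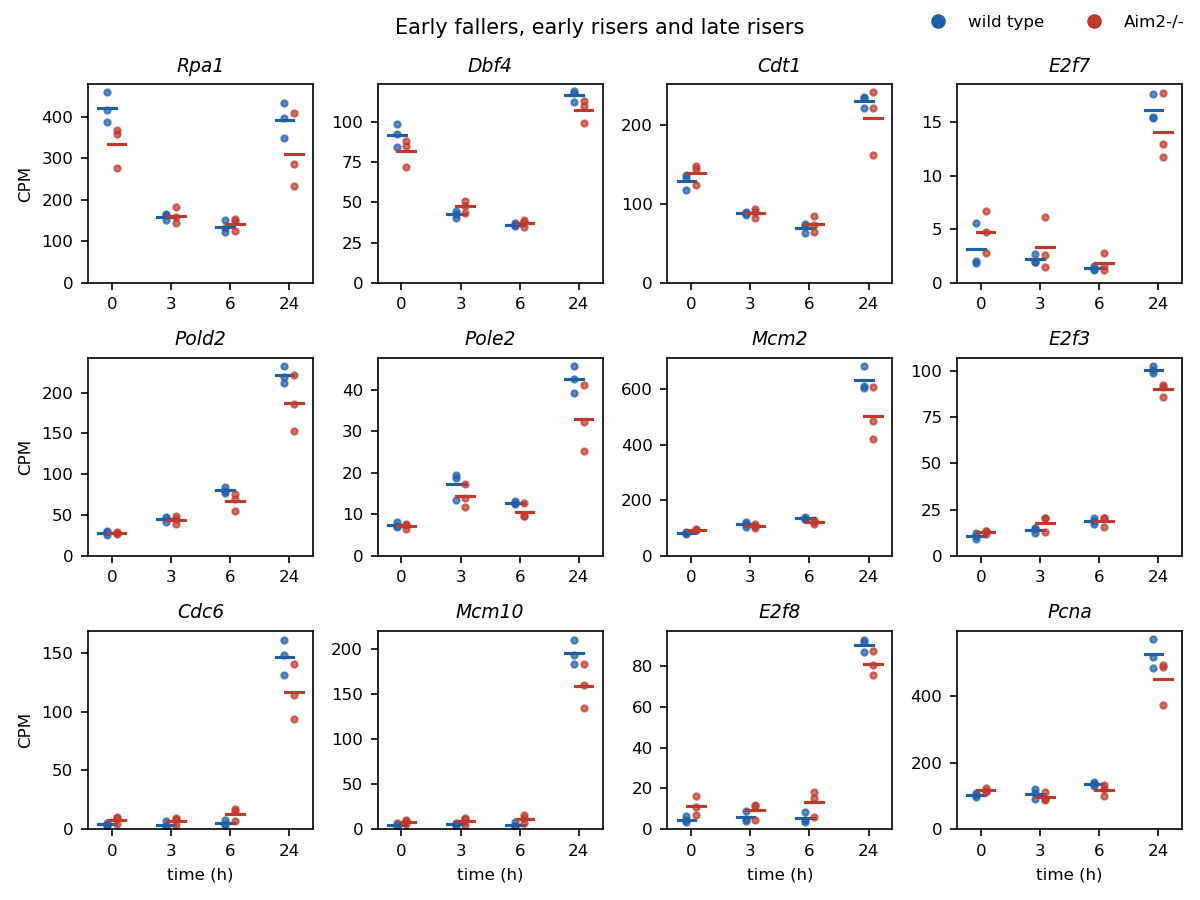
Points give CPM in single libraries over time and bars the mean of 3, for WT (blue) and Aim2-/- (red) cells, with times spaced evenly and each vertical axis starting at 0. The top row shows genes that fell by 6 h, the middle row genes that rose by 6 h in WT cells, and the bottom row genes with most of their rise after 6 h.

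The other 35 genes of replication and its E2F and retinoblastoma control, counted without regard to how they moved, rose and fell. At 24 h 25 were called higher and 5 lower in WT cells, and 26 and 5 in Aim2-/- cells, with median log2 fold changes of 1.07 and 1.14. Large rises in WT cells were those of the nuclease-helicase Dna2 (4.40), the clamp loader factor Chtf18 (4.20), the E2F partner Tfdp1 (3.79) and Tipin, the partner of Timeless (3.59). The genes called lower in both genotypes were the retinoblastoma family genes Rb1 (-1.34) and Rbl2 (-2.03), the E2F partner Tfdp2 (-0.43), the replication fork factor Donson (-0.84) and Pold4 (-0.48). Rbl1, the remaining retinoblastoma family gene, rose (0.94).

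Genotype was compared at each time. Before stimulation 0 of 50 genes were called higher and 1 lower in Aim2-/- than in WT cells (background 3.24% and 1.99%). Even so 40 of the 50 had a positive log2 difference, beside 7537 of all 15325 tested genes, with a median of 0.21 beside -0.0056. The 1 call was Timeless, at 29.97 ± 4.62 against 43.3 ± 2.97 CPM (mean ± SD, n = 3), a log2 difference of -0.53 ± 0.10 with no overlap (edgeR adjusted p 0.00891, from 0.000210 to 0.496 over the alternatives). Other cells' markers differed here too, at 0 h. The granulocyte precursor markers summed to 127 to 288 CPM in Aim2-/- against 27.1 to 33.2 CPM in WT libraries (5 of 5 called higher), the plasma cell markers to 385 to 761 against 41.3 to 167 CPM (2 of 3), the B cell markers to 16.2 to 42.3 against 8.37 to 10.2 CPM (2 of 6) and the myeloid markers to 93.3 to 312 against 27.03 to 47.1 CPM (2 of 5), and their part was not tested beyond a fit with marker scores, in which 0 replication genes and 0 of all tested genes were called. With the mouse labelled WT 1 left out, 2 genes, Mcm6 and Ticrr, were higher and 1 lower (background 4.27% and 1.51%). The counts were 15 and 1 without Aim2-/- mouse 2 (background 7.77% and 5.91%), and 3 and 1 without its 0 h library alone (4.82% and 5.47%). They were 0 in all without WT mouse 3, WT mouse 4 or Aim2-/- mouse 4, where 0.191%, 0.237% and 0.802% of all tested genes were called. At 3 h 0 were called higher and 0 lower (background 0.254% and 0.0392%) in edgeR, 7 of 50 having an unadjusted p under 0.05 beside 15.3% of all tested genes, and DESeq2 and limma-voom called 0 and 0. The median log2 difference there was 0.18 beside 0.0018, with 38 of 50 positive beside 7714 of 15325. At that time 1, Ticrr, was higher without the mouse labelled WT 1 (background 1.97%), 10 without Aim2-/- mouse 2 (background 4.64%) and 2 without its 3 h library (background 1.26%).

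At 6 h the replication genes were more often higher in Aim2-/- cells. There 13 of 50 were called higher and 0 lower (background 8.78% and 7.01%). The median log2 difference was 0.29 beside 0.051 over all tested genes, after 0.21 at 0 h and 0.18 at 3 h. The 13 came from many roles, namely Cdc6 and Gmnn of licensing, Gins4 and Mcm10 of helicase activation, Rfc2 and Rfc5 of the clamp loader, Rpa2, Pold1, Fen1, Lig1, Chaf1a, Chaf1b and E2f8. None of the MCM2-7 genes was among them.

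Rfc2, a clamp loader subunit, had the lowest adjusted p, with 95.3, 76.6 and 91.3 CPM in Aim2-/- against 63.8, 65.9 and 65.7 CPM in WT cells at 6 h (0.43 ± 0.081, adjusted p 0.00557). Rpa2, whose 6 h values stand above, followed with 0.49 ± 0.10 (adjusted p 0.00948), and Gmnn with 1.01 ± 0.23 (adjusted p 0.0110). These 3 genes had no overlap between genotypes at 6 h. Rfc5 read 27.5, 22.05 and 30.1 against 19.7, 17.3 and 18.3 CPM (0.52 ± 0.15), also without overlap. Lig1 read 77.1, 46.9 and 60.7 against 47.98, 34.95 and 37.4 CPM (0.62 ± 0.18), and Chaf1a 24.6, 13.4 and 20.5 against 14.01, 6.52 and 9.01 CPM (0.98 ± 0.29). For Lig1 and Chaf1a the lowest Aim2-/- value, that of mouse 2, lay just under the value of the mouse labelled WT 1. The largest log2 differences, those of Cdc6, E2f8 and Mcm10, were between genes at a low level. Cdc6 read 15.5, 6.75 and 16.7 CPM in Aim2-/- and 8.03, 3.65 and 4.28 CPM in WT cells, and E2f8 read 18.1, 6.10 and 15.4 and 8.42, 3.70 and 4.38 CPM. Mcm10 read 15.1, 6.89 and 11.8 and 7.76, 3.16 and 3.51 CPM. In each, Aim2-/- mice 1 and 4 were high, and Aim2-/- mouse 2 lay below the mouse labelled WT 1.

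The 6 h count depended on single mice, as did the share of all tested genes called, which was 15.8% in the main test and stands in brackets below. The count was 14 without the mouse labelled WT 1 (11.4%), of which 10 were among the 13. It was 0 without WT mouse 3 (1.14%), 0 without WT mouse 4 (0.607%), 2 without Aim2-/- mouse 1 (1.92%) and 2 without Aim2-/- mouse 4 (2.71%). Without Aim2-/- mouse 2 it was 25 higher and 1 lower (background 14% and 11.7%). With single 6 h libraries left out it was 2 for WT 3 (3.39%), 3 for WT 4 (5.02%), 0 for Aim2-/- 1 (0.816%) and 3 for Aim2-/- 4 (6.72%). Fitting the 6 h libraries alone left 3 (7.17%), namely Gmnn, Rfc2 and Rpa2. Among the 35 other pathway genes 5 were higher in Aim2-/- cells at 6 h, the histone chaperone Asf1b (0.71), the clamp loader factors Chtf18 (0.65) and Dscc1 (0.86), Pold4 (0.40) and Rnaseh2c (0.42), and 2 were lower, Rif1 (-0.79) and Chtf8 (-0.43).

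Markers of other cells also differed between genotypes at this time, and whether they bear on the replication genes was not tested beyond the fit with marker scores. At 6 h the 5 granulocyte precursor markers summed to 63.2 to 153 CPM in Aim2-/- against 10.3 to 20.2 CPM in WT libraries, all 5 called higher, and the 3 plasma cell markers to 346 to 765 against 30.7 to 147 CPM, all 3 called higher. The 6 B cell markers summed to 15.9 to 46.4 against 7.01 to 11.9 CPM (2 called), the 5 myeloid markers to 46.2 to 162 against 15.3 to 37.6 CPM (0 called) and the 6 erythroid markers to 23.2 to 498 against 8.08 to 64.9 CPM (0 called). Aim2-/- mouse 1 was highest in each of these lists. No defining marker of them was at 0 in all libraries of a group at 6 h. With B cell, myeloid, erythroid and granulocyte precursor scores as terms of the model, chosen after seeing the data, 0 of the 50 genes and 0 of all 15325 were called at 6 h, and the median log2 difference of the 50 was 0.30.

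**Figure D4:**
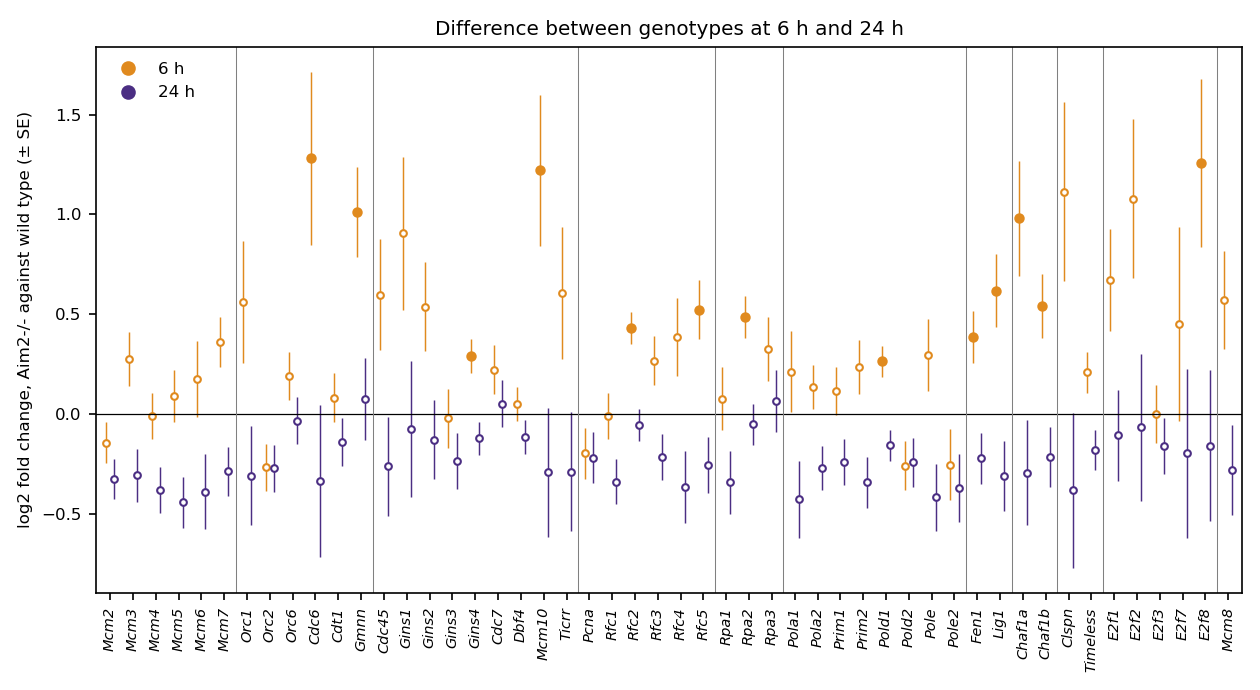
Log2 fold change of each gene in Aim2-/- against WT cells with its standard error, at 6 h (orange) and 24 h (purple); filled points have an adjusted p under 0.05. At 6 h 13 points are filled and most lie above 0, while at 24 h no point is filled and 47 of 50 lie below 0.

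At 24 h the direction had turned. In edgeR 0 replication genes were called higher and 0 lower (background 0.659% and 0.00653%). Yet 47 of 50 had a negative log2 difference, beside 7512 of all 15325 tested genes, with a median of -0.25 beside 0.00596. The genes were read in the same mice and are not separate observations. Of the 50, 14 had an unadjusted p under 0.05, beside 20.5% of all tested genes. Mcm5 held 577 ± 143 CPM in Aim2-/- against 784 ± 63.97 CPM in WT cells (-0.44 ± 0.13, adjusted p 0.0876). In 12 genes every Aim2-/- library lay below every WT library (Mcm4, Mcm5, Orc2, Cdc45, Gins3, Rfc4, Pola1, Prim1, Pold1, Fen1, Chaf1a and E2f3), where 10.2% of all tested genes did so.

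Aim2-/- mouse 2 stood with the WT mice at 24 h. The median over the 50 genes of log2 CPM minus the WT mean was -0.062, 0.10 and -0.036 in the WT and -0.50, -0.067 and -0.22 in the Aim2-/- mice at 24 h, and 0.11, -0.10 and -0.039 and 0.37, 0.090 and 0.39 at 6 h. Mouse 2 was thus nearest to the WT mice at both times, and the markers above were lower in it than in mouse 1. Against mouse 4 at 6 h, mouse 2 had 63.2 and 74.8 CPM of granulocyte precursor markers, 16.6 and 15.9 of B cell, and 46.2 and 66.6 of myeloid markers. Plasma cell markers read 346 and 534 CPM and erythroid markers 23.2 and 230 CPM in mice 2 and 4. Any link to the shift of a mouse was not tested. Without mouse 2 13 genes were called lower at 24 h, and without its 24 h library 11 were. In these fits 9.28% and 7.91% of all tested genes were called lower. The 13 were Mcm2, Mcm3, Mcm4, Mcm5, Mcm7, Pola2, Pold2, Pole, Pole2, Prim2, Rfc1, Rfc5 and Rpa1. DESeq2 called 3 lower (Mcm2, Mcm4 and Mcm5), with 1.84% of all genes, and limma-voom 0. Without the mouse labelled WT 1 the count was 0, with 0.134% of all tested genes called lower. At 24 h the granulocyte precursor markers summed to 17.9 to 103 CPM in Aim2-/- and 3.85 to 6.08 CPM in WT libraries, and the B cell markers to 5.64 to 27.2 and 4.004 to 5.07 CPM.

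**Figure D5:**
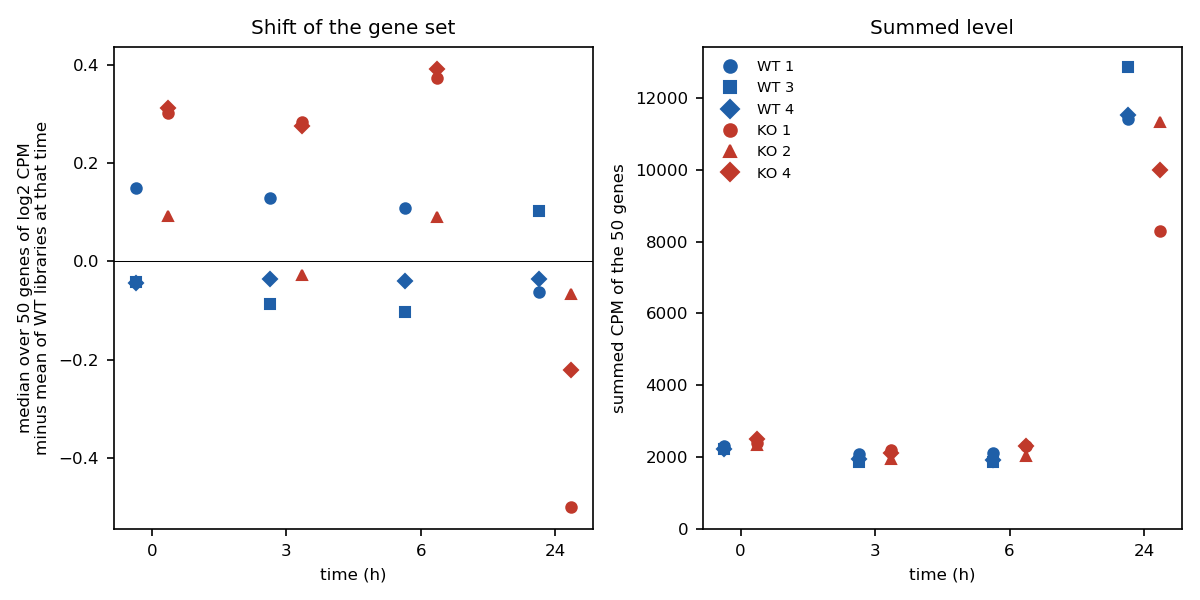
Left, the median over the 50 genes of log2 CPM in each library minus the mean of the WT libraries at that time; right, the summed CPM of the 50 genes; symbols mark the mouse, WT in blue and Aim2-/- (KO in the key) in red, with times spaced evenly. Aim2-/- mice 1 and 4 lie above the WT mice through 6 h and below them at 24 h, while Aim2-/- mouse 2 stays close to the WT mice.

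The response itself was compared by the interaction of genotype and time, which tests the difference that the 2 separate responses cannot. In edgeR 0 replication genes were called for the response at 3, 6 or 24 h, where 0%, 0.0261% and 0% of all tested genes were, and 2, 4 and 23 of the 50 had an unadjusted p under 0.05, beside 4.26%, 13.2% and 11.9% of all tested genes. The median difference of the log2 responses, Aim2-/- minus WT, was -0.029, 0.12 and -0.43 at the 3 times, beside 0.012 over all tested genes at 24 h. Each response is measured from 0 h, so the value at 24 h holds differences of both times. The median log2 difference between genotypes was 0.21 at 0 h and -0.25 at 24 h. The lowest adjusted p was that of Timeless at 6 h, 0.0520, with a difference of 0.74 ± 0.14 and opposite directions in the 3 mice of each genotype.

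With mouse as a block, which removes the level that the libraries of a mouse share, 2 genes were called at 6 h, where 4.68% of all tested genes were, Timeless (0.74 ± 0.14, adjusted p 0.0112) and Rfc2 (0.42 ± 0.11, adjusted p 0.0333). At 24 h 5 were called, beside 2.77% of all tested genes, each with a smaller rise in Aim2-/- cells, namely Mcm2 (-0.54 ± 0.12), Mcm5 (-0.77 ± 0.18), Mcm6 (-0.83 ± 0.20), Fen1 (-0.64 ± 0.15) and Rfc3 (-0.60 ± 0.16), with adjusted p from 0.0222 to 0.0413. DESeq2 called 0 at 3 h, 1 at 6 h, Timeless, and 1 at 24 h, Mcm5, beside 0%, 2.89% and 1.62% of all genes. Without Aim2-/- mouse 2 the counts were 1 at 6 h and 9 at 24 h, where 0.371% and 1.29% of all tested genes were called, and without its 24 h library 2 at 24 h (1.02%). At 6 h the count was 1 without its 6 h library (0.102%) and 1 without the 0 h library labelled WT 1 (0.305%).

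A further interaction, added after seeing the data, compared the rise from 6 to 24 h. Of the 50 genes 49 rose less in Aim2-/- cells, with a median difference of -0.57 beside -0.00366 over all tested genes. The difference was negative in 7747 of all 15325 tested genes. The 50 genes were read in the same mice and are not separate observations. In edgeR 0 were called (background 0%), though 33 had an unadjusted p under 0.05 beside 7.52% of all tested genes, and DESeq2 called 0. The block fit called 1 (0.17% of all tested genes), Rpa2 (-0.53 ± 0.10, adjusted p 0.0452), and the fit without Aim2-/- mouse 2 called 1, Rfc5. Leaving out the mouse labelled WT 1 gave 0 calls over all tested genes. This comparison shares its libraries with those at 6 and 24 h and is no separate evidence. The part of other cells in these differences was not tested beyond the fit with marker scores. For the response at 24 h that fit called 0 of the 50 genes (0.0979% of all tested genes), and the main test had called 0 without the scores. It held no score for plasma cells.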

How the data were processed

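The paper's methods describe CD4+ T cells isolated by immunomagnetic negative selection and stranded mRNA libraries. The RNA-seq results in the paper are of naive and Treg-polarized cells, not of this time course. Per the labels, the authors aligned reads with STAR to GRCm38. They deposited raw read counts per gene, with no normalization, for 54446 identifiers in 24 libraries of 19715161 to 21627018 counts; strand use and tool versions were not given in the sources used here. The labels also name DESeq2 and edgeR. Symbols, positions and exon lengths came from GENCODE M21, promoter windows from RefSeq.

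The main test was edgeR 4.0.16's quasi-likelihood test in R 4.3.3 on all 24 libraries, 1 mean per group, TMM factors and filterByExpr (minimum count 10), which kept 15325 genes. CPM used TMM-scaled totals. P-values were two-sided and adjusted after Benjamini and Hochberg over all tested genes. The biological coefficient of variation was 18.6%. Alternatives were RLE factors, totals only, DESeq2 1.42.0, limma-voom (limma 3.58.1), no filter, a mean of 1 CPM, only the libraries compared, replicate blocks, and leaving out each library and each mouse; fits with marker scores and the 24 against 6 h interaction were added after seeing the data.

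The 50 genes, the roles, the 35 other genes and the marker lists were chosen with earlier results of these data known. Values in each library are given for MCM2-7, Pcna and E2F genes, the extremes of each role at 24 h in WT, the lowest adjusted p between genotypes and the largest falls; Pold2, Pole2 and Orc2 were named after their values were seen. Each mouse gave all 4 times per the labels, so its libraries are paired: deviations from group means correlated from 0.139 to 0.567 over 36 same-mouse pairs, against -0.432 to 0.0742 over 72 pairs of different mice of a genotype. Floors cover counting error only; SE and SD include the spread between mice.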

Additional observations from a re-analysis of the deposited data

Results flagged for a closer look

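In 4 cases the 3 WT mice moved one way from 0 h and the 3 Aim2-/- mice the other. At 6 h these were Timeless, with a difference in log2 response (Aim2-/- minus WT) of 0.74 ± 0.14 and an edgeR adjusted p of 0.0520 (0.00294 to 0.634 over the alternatives), and Rpa2, with 0.17 ± 0.15 and an adjusted p of 0.669. At 3 h they were Gins3, with 0.35 ± 0.21, and Rfc3, with -0.26 ± 0.17, and the edgeR adjusted p was 0.9999 for both. These edgeR tests passed the threshold for 0 of the 4, while for Timeless it passed in the paired fit with mouse as a block (adjusted p 0.0112), in DESeq2 (0.00294), with no filter (0.0285) and with marker scores (0.0306). At 6 h 2.38% of all tested genes and at 3 h 1.25% showed such opposite moves, against 4% of the 50 genes at each time. Groups of 3 libraries are too small for a test of single outlying values.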

How the results depend on the processing

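Every count of 49 or 50 genes higher at 24 h, against 0 or 6 h in either genotype, stayed at 49 or 50 in all alternatives. Of the 50 genes, 50 in WT and 49 in Aim2-/- cells kept their call at 24 h against 0 h in all 17 alternatives, while Rpa1 in Aim2-/- cells ranged from -0.36 to 0.057 with single libraries left out (-0.11 in the main test), the positive value without the 24 h library of mouse 1. Early calls were less stable, with 7 of 10 held in WT and 5 of 12 in Aim2-/- cells at 3 h, and 12 of 19 and 9 of 19 at 6 h. With the mouse as a replicate block the WT count at 3 h was 17 (42.7% of all tested genes) and the Aim2-/- count 18 (41.2%). With only the libraries compared the Aim2-/- count at 3 h was 7 (24.5%). With single libraries or mice left out the Aim2-/- count ranged from 5 to 12 at 3 h and from 11 to 17 at 6 h, while the share of all tested genes ranged from 18% to 27.5% and from 40.5% to 48%.

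Shares of all tested genes called in the same fit stand in brackets here. Between genotypes the counts at 0 h (1 in the main test) were 3 in DESeq2 (10.8%), 9 with no filter on low counts (4.78%), 0 with only the libraries compared (2.36%), 0 with marker scores (0%) and 0 to 16 with single libraries or mice left out. At 3 h (0 in it) they were 3 with no filter (2.47%) and 0 to 10 with leaving out. At 6 h (13 in it) they were 8 with RLE factors (15.6%), 3 with only the libraries compared (7.17%), 0 with marker scores (0%) and 0 to 26 with leaving out, and none of the 13 genes held in all 22 alternatives. At 24 h (0 in it) they were 3 in DESeq2 (5.95%), 3 with no filter (3.07%) and 0 to 13 with leaving out. The highest counts with leaving out came without Aim2-/- mouse 2. In that fit 13.7%, 7.31%, 25.7% and 17.3% of all tested genes were called at 0, 3, 6 and 24 h. Mice of different genotype share numbers 1 and 4 only as numbers: deviations of same-numbered mice correlated from -0.165 to 0.300. A replicate block on that number, which rests on these mice, gave 12, 4, 25 and 7 calls at 0, 3, 6 and 24 h. With this block 23.6%, 15.2%, 36% and 21.1% of all tested genes were called. The cause of these shifts was not tested.

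For the difference in response (0 in the main test throughout), the 6 h count was 1 with library totals (0.117% of all tested genes), 1 in DESeq2 (2.89%), 1 with no filter (0.469%), 1 with marker scores (1.1%), 2 with the mouse as a replicate block (4.68%) and 0 to 1 with leaving out. At 24 h it was 1 in DESeq2 (1.62%), 7 with no filter (0.494%), 5 with the block (2.77%) and 0 to 9 with leaving out. From 6 to 24 h it was 4 with no filter (0.0733%), 1 with the block (0.17%) and 0 to 1 with leaving out. The block changed no other call count by over 1.5 times. With 3 mice a group, 1 mouse decides many genotype calls, and genes near 3 CPM at rest have wide errors.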
